A study of Mus musculus with 6 samples.

Results

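The nuclear genes of respiratory complex I were followed through a knockdown of Usp8 in osteoclast cultures. Members were all gene symbols that begin with Nduf, continue with a, b, c, s, v or af and then a number, leaving out symbols that end in -ps, which gave 48 of the 55291 genes in the tables. By the split used here they are 7 core subunits, 33 accessory members (called accessory subunits below) and 8 assembly factors. The accessory class takes in Ndufa11b, Ndufs6b and Ndufb4c, annotated as processed pseudogenes, and Ndufa4 and Ndufa4l2, now assigned to cytochrome c oxidase. RNA sequencing covered RAW 264.7 cells, an established mouse macrophage line, which were given the osteoclast cytokine RANKL at 50 ng/mL for 4 days. The control group, shCtrl (n = 3), is labelled as wild type and received a control short hairpin RNA, and the shUSP8 group (n = 3) is labelled as a knockdown of Usp8, the gene of a ubiquitin-removing enzyme. Line, medium, RANKL and harvest day were the same in both groups. How many hairpins were used, and whether the cells were clones or pools, is not given in the sources used here. Nothing in the labels tells whether replicate libraries are independent cultures. The p-values therefore refer to the spread among these 6 libraries, part or all of which may be technical.

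Complex I is the entry enzyme of the mitochondrial respiratory chain. It takes electrons from NADH through a flavin and a row of iron-sulphur clusters in its peripheral arm, passes them to ubiquinone, and uses the energy to pump protons through its membrane arm. Core subunits carry out this chemistry, accessory subunits surround and stabilise them, and assembly factors help to build the enzyme without staying in it. Osteoclasts are rich in mitochondria, and the title of the series names mitochondria as the subject of the work on USP8.

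Total expected counts, the estimated read pairs per gene summed over a library, ranged from 19973522 to 20213939. Usp8 itself was at 42.3, 37.8 and 38.4 TPM (a length-corrected share of a library's transcripts) in the 3 shCtrl libraries and at 10.0, 10.7 and 11.5 TPM in the 3 shUSP8 libraries, so the groups did not overlap and the labels hold for this gene (edgeR log2 fold change -2.00, SE 0.06, adjusted p = 1.47e-10). All 6 osteoclast and all 6 macrophage markers exceeded 1 TPM in every library. Summed osteoclast markers were at 9806 to 10630 TPM in shCtrl and 9240 to 9560 TPM in shUSP8, and summed macrophage markers at 4558 to 4876 and 6335 to 6869 TPM. The higher macrophage sum came from Lyz2, at 900 to 995 TPM in shCtrl and 3100 to 3372 TPM in shUSP8. Without it the other 5 macrophage markers summed to 3635 to 3881 TPM in shCtrl and 3234 to 3497 TPM in shUSP8. Their directions differed. Adgre1, like Lyz2, was higher in every shUSP8 library (22.4 to 33.4 TPM) than in any shCtrl library (12.3 to 14.3 TPM). Cd68 was lower in every shUSP8 library, and the groups overlapped for Csf1r, Ptprc and Spi1. Of the osteoclast markers, 3 were lower and 1 was higher in every shUSP8 library than in any shCtrl library. These levels moved with the group, and their part in the results for complex I was not tested. Markers of T cells, B cells, fibroblasts or osteoblasts, endothelium and epithelium summed to at most 1.79 TPM in any library, and 3 of 4 T cell markers and 2 of 3 B cell markers were at 0 in all libraries. In such bulk samples, less RNA per cell and fewer cells of a type cannot be told apart. One shUSP8 library stood apart: its mean fragment length, estimated from the ratio of count to TPM, was 368.3 nt in shUSP8_2 and 301.3 ± 6.36 nt (SD, n = 5) in the other libraries. Longer fragments leave fewer start positions on a short transcript, which bears on the many short complex I transcripts and is taken up with the results.

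After Usp8 knockdown some subunits of complex I were moderately lower, and how many depended on the fit. Of 45 members with enough counts to test, 16 fell and 0 rose (edgeR quasi-likelihood test, Benjamini-Hochberg adjusted p under 0.05 over 12440 genes). That is 35.6% of the members, against 14.9% of all tested genes that were called lower and 17.8% called higher. At an unadjusted p under 0.05, 22 members were lower and 0 higher, against 20.1% and 22.6% of all genes. DESeq2 called 21 members lower and 0 higher, against 12.5% and 13.6% of genes, and limma-voom called 17 and 0, against 14.8% and 17.2%. The median log2 fold change was -0.20 over the members and -0.005 over all tested genes. A negative value was found in 41 of 45 members, against 6318 of 12440 genes. By class, 6 of 7 core subunits fell (median -0.20), 10 of 30 accessory subunits fell (median -0.24) and 0 of 8 assembly factors were called (median -0.009). The SE ran from 0.065 to 0.249 in assembly factors and from 0.049 to 0.066 in core subunits. A change of the same size was thus harder to call in assembly factors. By place in the enzyme, 9 of 16 subunits of the peripheral arm fell (median -0.21) and 7 of 20 of the membrane arm (median -0.23). The membrane arm takes in the pseudogene Ndufb4c, which was not called. The difference between classes or arms was not tested. The number of falls rested on single libraries. It was 31 without shUSP8_1 (against 16.5% of all genes called lower in that fit), 6 without shUSP8_3 (10.5%), 6 without shCtrl_3 (10.3%), 7 without shCtrl_2 (9.81%) and 9 without shCtrl_1 (11.1%). The 6 calls are 13.3% of the members, close to the share of all genes in those fits. It also rested on the treatment of transcript length, with 7 members under effective-length offsets (1 core and 6 accessory) and 3 on the TPM scale.

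**Figure D1:**
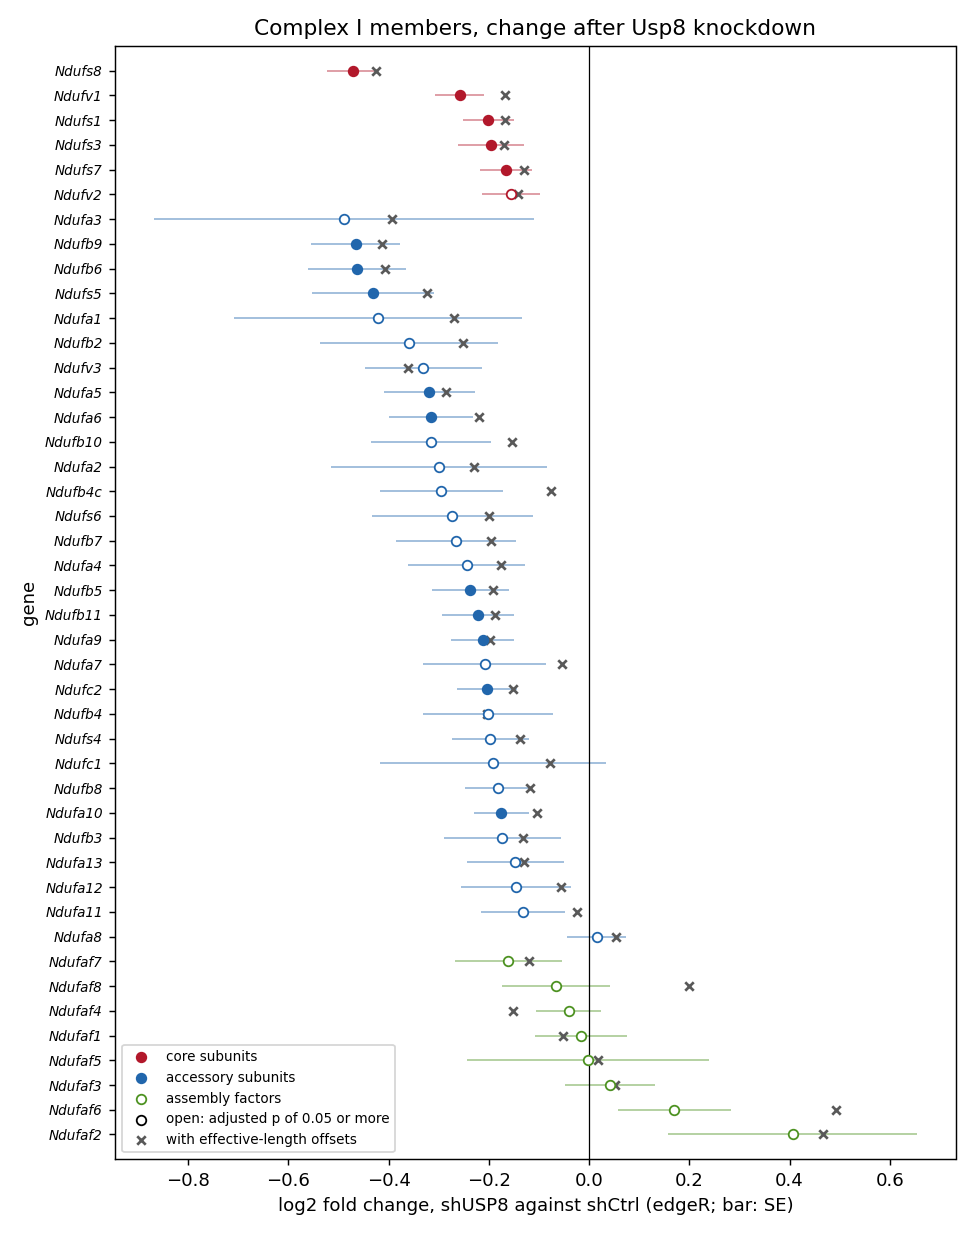
Log2 fold change of shUSP8 against shCtrl for 44 of the 45 tested complex I genes (horizontal axis), one gene per line and grouped by class. Filled circles have an edgeR adjusted p under 0.05, open circles do not, bars are 1 SE, and crosses are the same genes fitted with effective-length offsets. All core subunits drawn lie left of 0, and the assembly factors lie from -0.16 to 0.41.

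The 3 members that were not tested had almost no counts. Ndufa11b, a processed pseudogene in the annotation, had 0 counts in every library. Ndufs6b, another processed pseudogene, had 1 count in shCtrl_3 and 0 elsewhere. Ndufa4l2, a hypoxia-linked relative of Ndufa4, had 3, 2 and 0 counts in shCtrl and 0, 0 and 2 in shUSP8. Both Ndufa4 and Ndufa4l2 carry complex I names but are today assigned to cytochrome c oxidase, and leaving them out left the 16 calls as they were.

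Promoter windows from RefSeq (GRCm38.p6, 250 bases before to 50 after each transcription start) were found for 39 of the 45 tested members. They were searched on both strands for 4 motifs of factors known for respiratory chain promoters, namely AAGATGGCG for YY1, TGCGCATGC for NRF1, CCGGAAGT for GABPA and TCAAGGTCA for the oestrogen-related receptors. The motifs do not overlap each other in these windows, and 10 of the 39 genes held at least 1 of them. The YY1 letters stood in 6 of 39 member genes (15.4%), against 1.64% of the 27025 genes in the whole promoter table. The NRF1 letters stood in 3 (7.69%, against 1.72%), the GABPA letters in 1 (2.56%, against 4.31%) and the receptor letters in 0 (against 0.466% of all genes). Every YY1 match was on the strand of the gene, began 11 to 36 bases after the start site, and in 5 of 6 genes its ATG was the annotated start codon. These 6 sites are shown because they are alike in letters, strand and place, 5′ to 3′ on the strand of the gene with the motif in capitals.
Ndufs7 (chr10:80249463-80249492, plus strand): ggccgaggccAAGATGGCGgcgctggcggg
Ndufa9 (chr6:126849096-126849125, minus strand): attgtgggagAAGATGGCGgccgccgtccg
Ndufs4 (chr13:114388045-114388074, minus strand): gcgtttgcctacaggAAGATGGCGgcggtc
Ndufs6 (chr13:73328433-73328462, minus strand): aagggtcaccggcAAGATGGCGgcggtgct
Ndufc1 (chr3:51408914-51408943, minus strand): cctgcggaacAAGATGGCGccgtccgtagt
Ndufaf8 (chr11:120098934-120098963, plus strand): ggcagggcccAAGATGGCGgcgccctcgag
Of these genes Ndufs7 and Ndufa9 fell and the other 4 did not pass the test. The NRF1 letters, or their reverse complement GCATGCGCA, stood at the following sites, again in capitals.
Ndufa6 (chr15:82354355-82354384, minus strand): ccgcggtagaGCATGCGCAttgcagagccc
Ndufa8 (chr2:36049327-36049356, minus strand): cgctggagacGCATGCGCAgatggtaccgg
Ndufaf4, upstream site (chr4:24897959-24897988, plus strand): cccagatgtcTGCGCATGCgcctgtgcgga
Ndufaf4, start site (chr4:24898073-24898102, plus strand): gcccctggtgTGCGCATGCtccgtgcgtac
Ndufa6 fell, while Ndufa8 and Ndufaf4 did not pass the test. The only GABPA match was in Ndufs3, on the reverse strand. A match of letters is a description and not a binding site. The genes of the factors showed no call, with log2 fold changes of 0.07 for Yy1 (adjusted p = 0.266), -0.04 for Nrf1 (0.645), 0.01 for Gabpa (0.916) and -0.15 for Esrra (0.131). Yy1 was called higher when libraries were scaled by their totals alone (0.15, adjusted p = 0.0397), and Esrra was called lower without shUSP8_1 (-0.21, adjusted p = 0.0198) and with no filter on low counts (-0.16, adjusted p = 0.0422).

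Among the core subunits Ndufs8, which holds a pair of iron-sulphur clusters on the way to ubiquinone, had the largest change. It lies on chromosome 19 from 3908863 to 3912774 on the minus strand (GENCODE M21, GRCm38). Its levels in CPM (a gene's share of a library's counts, scaled by edgeR's TMM factors) were 158.5, 154 and 166.2 in the control libraries, numbered 1 to 3, and 116.2, 111.6 and 117.2 in the knockdown libraries. Every shUSP8 library was below every shCtrl library (log2 fold change -0.47, SE 0.05, edgeR adjusted p = 1.79e-05). On the TPM scale, which corrects for length, it stood at 348, 327 and 338 in shCtrl and at 258, 286 and 280 in shUSP8, and the groups again did not overlap. Ndufs8 was the only core subunit whose groups were apart on both scales, and it was called lower with each library left out in turn (adjusted p at most 0.00032) and with effective-length offsets (-0.43, adjusted p = 0.00115).

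Ndufv1, which binds NADH and the flavin at the tip of the peripheral arm, lies on the same chromosome from 4007384 to 4012806 on the minus strand. Its CPM values were 221.8, 228.4 and 225.8 in shCtrl and 195.2, 188.2 and 182 in shUSP8. The groups did not overlap, and Ndufv1 fell (log2 fold change -0.26, SE 0.05, edgeR adjusted p = 0.00154), also with each library left out. In TPM its values were 218, 220 and 202 in shCtrl and 192, 234 and 195 in shUSP8, where shUSP8_2 was the highest of all 6. With effective-length offsets the call was lost (-0.17, adjusted p = 0.185), and with offsets and without shUSP8_2 it returned (-0.27, adjusted p = 0.00873).

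Ndufs1, the largest core subunit, carries several iron-sulphur clusters behind the flavin. Its CPM values were 216.7, 212.8 and 208.6 in shCtrl and 180.8, 194.6 and 179.8 in shUSP8, again without overlap (log2 fold change -0.20, SE 0.05, edgeR adjusted p = 0.00933). In TPM, shUSP8_2 at 120 was above every shCtrl library, which spanned 110 to 115, while shUSP8_1 and shUSP8_3 were at 103 and 105. The call was lost with offsets (adjusted p = 0.127) and without shUSP8_3 (adjusted p = 0.0555), and it returned with offsets and without shUSP8_2 (-0.25, adjusted p = 0.0114).

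Ndufs7 holds the last iron-sulphur cluster before ubiquinone, and Ndufs3 is a scaffold of the same module. Ndufs7 was at 117, 114.3 and 117.5 CPM in shCtrl and at 110, 99.9 and 101.4 CPM after knockdown (log2 fold change -0.17, SE 0.05, edgeR adjusted p = 0.0297). Ndufs3 was at 89.5, 87.0 and 88.6 CPM in shCtrl and at 85.3, 70.4 and 75.6 CPM in shUSP8 (-0.20, SE 0.07, adjusted p = 0.0387). In both genes the CPM ranges were apart by a small gap, with shUSP8_1 nearest to the controls, and the TPM ranges overlapped. These calls are narrow: each missed the threshold under effective-length offsets (adjusted p of 0.144 for Ndufs7 and 0.0973 for Ndufs3) and in 5 of the 6 fits that left out a library (adjusted p from 0.0718 to 0.129 where lost).

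Ndufv2, the partner of Ndufv1 that holds a cluster off the main chain, was at 84.0, 85.0 and 93.5 CPM in shCtrl and at 82.5, 76.1 and 77.1 CPM in shUSP8. Its groups were also apart in CPM, by a small gap, and it did not pass the test (-0.16, SE 0.06, adjusted p = 0.0589). In TPM all 7 core subunits had negative log2 fold changes, but the values were small and only Ndufs8 was called. The order of the core subunits named here by TPM in shCtrl ran from Ndufs8 (338 ± 10.5, SD, n = 3) through Ndufs7 (284 ± 12.5), Ndufv1 (213 ± 10.2), Ndufs3 (136 ± 6.67) and Ndufs1 (112 ± 2.61) to Ndufv2 (87.9 ± 2.48). In shUSP8 the first 2 were no longer apart, with Ndufs8 at 275 ± 14.4 and Ndufs7 at 283 ± 8.83 TPM.

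**Figure D2:**
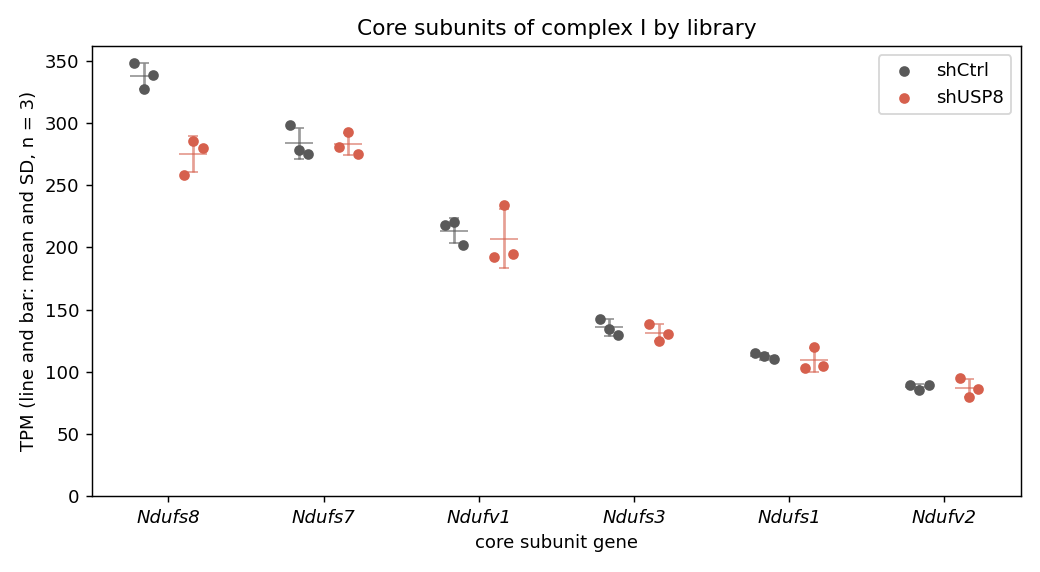
TPM of 6 of the 7 core subunits (vertical axis, from 0) in the 3 shCtrl and 3 shUSP8 libraries, with the mean and SD of each group. Ndufs8 alone shows separate groups, at 327 to 348 TPM in shCtrl and 258 to 286 TPM in shUSP8.

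Among the accessory subunits called in the fit on counts, Ndufb9 and Ndufb6 of the membrane arm had the most negative fold changes. Ndufb9, a member of the LYR family that holds the acyl carrier protein at the far part of the membrane arm, lies on chromosome 15 from 58933756 to 58939488. It was at 252, 252 and 263 TPM in shCtrl and at 217, 200 and 212 TPM in shUSP8, and its CPM values were 86.7, 89.9 and 98.8 against 74.2, 57.9 and 67.4. The groups were apart on both scales (log2 fold change -0.47, SE 0.09, edgeR adjusted p = 0.00326). Ndufb6, a small subunit with a membrane helix, lies on chromosome 4 from 40270591 to 40279421. It was at 214, 203 and 203 TPM in shCtrl and at 173, 157 and 179 TPM in shUSP8, with CPM values of 65.4, 64.1 and 67.4 against 52.7, 39.5 and 50.6. These groups too were apart on both scales (-0.46, SE 0.10, adjusted p = 0.00613). Both genes and Ndufs8 were called lower in the fit on counts, with offsets (adjusted p of 0.00367 for Ndufb9, 0.00314 for Ndufb6 and 0.00115 for Ndufs8), on log2(TPM + 1) and with any 1 library left out. Exons of Ndufb6 overlap those of Smim27 on the opposite strand over 39.0% of their length, and those of Ndufb9 overlap Gm49356 on the same strand over 19.5%, so reads there are uncertain, since no source used here says whether the counts use strand.

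Ndufs5, which faces the intermembrane space and carries paired cysteines, was at 53.7, 54.6 and 51.1 CPM in shCtrl and at 43.3, 31.3 and 43.6 CPM in shUSP8. In CPM the groups were apart, with shUSP8_2 far below the other 2 knockdown libraries (log2 fold change -0.43, SE 0.12, edgeR adjusted p = 0.0302). In TPM Ndufs5 was at 282, 276 and 244 in shCtrl and at 224, 229 and 246 in shUSP8, with overlap. It was also called with offsets (-0.32, adjusted p = 0.00823), and lost the call without any 1 shCtrl library (adjusted p from 0.0774 to 0.0962). Ndufa6, another LYR subunit and the acyl carrier protein's partner in the peripheral arm, was at 71.9, 73.1 and 76.6 CPM in shCtrl and at 66.4, 51.3 and 60.4 CPM in shUSP8. Again shUSP8_2 was lowest in CPM and no libraries overlapped (-0.32, SE 0.08, edgeR adjusted p = 0.0157, and with offsets -0.22, adjusted p = 0.0214). In TPM the groups were also apart, at 294 to 307 in shCtrl and 276 to 285 in shUSP8, but shUSP8_2 was the highest knockdown library. The call was lost without shCtrl_3 or shUSP8_3 (adjusted p of 0.0507 to 0.075).

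The other 6 accessory subunits that fell in the fit on counts were not called with offsets, where their adjusted p lay between 0.0634 and 0.272. Ndufa5, which sits beside Ndufs3 in the peripheral arm, was at 19.75, 19.96 and 19.22 CPM in shCtrl and at 16.7, 13.5 and 17.0 CPM in shUSP8 (-0.32, SE 0.09, edgeR adjusted p = 0.0186). Ndufa9, which joins the 2 arms and binds a nucleotide cofactor, was at 184.2, 183 and 201.9 CPM in shCtrl and at 177.5, 155.4 and 158.3 CPM in shUSP8 (-0.21, SE 0.06, adjusted p = 0.0217). In both genes the highest shUSP8 library lay under the lowest shCtrl library. Ndufa10, which has the fold of a nucleoside kinase, was at 168.2, 174.9 and 181.5 CPM in shCtrl and at 162.2, 156.4 and 146 CPM in shUSP8 (-0.175, SE 0.06, adjusted p = 0.0284). Its TPM difference had the other sign, 127.7 ± 0.696 against 129.6 ± 4.81 (SD, n = 3 each). On log2(TPM + 1) Ndufa10 was at 0.021, below the median of all tested genes at 0.11.

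The remaining 3 are subunits of the membrane arm. Ndufc2, a small membrane subunit, was at 74.4, 78.5 and 75.6 CPM in shCtrl and at 71.9, 63.5 and 63.2 CPM in shUSP8 (-0.20, SE 0.06, edgeR adjusted p = 0.0223). Ndufb5 was at 62.3, 62.1 and 62.5 CPM in shCtrl and at 60.0, 47.3 and 51.2 CPM in shUSP8 (-0.24, SE 0.08, adjusted p = 0.0353). Ndufb11, an X-linked gene whose protein is needed to finish the membrane arm, was at 59.1, 60.2 and 64.5 CPM in shCtrl and at 58.7, 50.2 and 48.9 CPM in shUSP8 (-0.22, SE 0.07, adjusted p = 0.0342). In these 3 genes shUSP8_1 lay close under the controls and the other 2 knockdown libraries well under them. The calls rest on single libraries, as each of these 6 genes lost its call in 2 to 5 of the 6 fits that left out a library. Exons of Ndufb5 overlap Mrpl47 over 12.3% and those of Ndufb11 overlap Rbm10 over 12.9% of their length, on opposite strands.

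The other 20 tested accessory subunits had log2 fold changes from -0.49 to 0.02 and none passed the test. Ndufa3 had the most negative value (-0.49, SE 0.38, edgeR adjusted p = 0.403), with 644, 656 and 700 counts in shCtrl and 654, 257 and 580 in shUSP8, so shUSP8_2 alone was far off. The most abundant were Ndufa4 (636 ± 36.7 TPM in shCtrl and 613 ± 31.9 in shUSP8, SD, n = 3), Ndufb8 (511 ± 24.8 and 513 ± 7.16), Ndufa1 (441 ± 35.6 and 400 ± 15.4) and Ndufa7 (314 ± 5.67 and 330 ± 19.1). Each of these differences except that of Ndufa1 was smaller than the larger SD of its pair. Ndufa8, a subunit with paired cysteines in the intermembrane space, was the one accessory subunit with a positive log2 fold change (0.02, SE 0.06). Its TPM was higher in every shUSP8 library, at 198, 200 and 183, than in shCtrl, at 180, 170 and 164, by a small gap. The same held for 33.8% of all tested genes. Ndufb4c, annotated as a processed pseudogene, had counts that were not whole, like its relative Ndufb4 and 8 other members. The 8 were Ndufa12, Ndufa13, Ndufb5, Ndufb6, Ndufb9, Ndufs1, Ndufs3 and Ndufs5. Some reads of these members were divided between genes, and the values are uncertain to that extent. Which genes shared the reads was not examined.

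Assembly factors were scarce, at 7.87 to 41.2 TPM in shCtrl, where the tested core and accessory members ranged from 36.3 to 636 TPM. The lowest of these was Ndufb4, whose counts were not whole and whose level is uncertain, and the next was Ndufa5 at 70.2 TPM. None of the 8 assembly factors was called by edgeR, DESeq2 or limma-voom, and 0 had an unadjusted p under 0.05 in edgeR. In CPM the groups overlapped for all 8. Ndufaf1, the partner of Ecsit and Acad9 in the complex that builds the membrane arm, was at 18.9, 17.4 and 16.3 CPM in shCtrl and at 17.2, 19.2 and 15.7 CPM after knockdown (log2 fold change -0.02). Ndufaf3 and Ndufaf4 work together on the early peripheral arm. Ndufaf3 was at 11.5, 10.6 and 11.3 CPM in shCtrl and at 12.4, 10.8 and 11.2 CPM in shUSP8 (0.04), and Ndufaf4 at 27.4, 26.6 and 26.8 against 24.99, 26.16 and 27.49 (-0.04). Ndufaf5 and Ndufaf7 modify arginines of core subunits. Ndufaf7 was at 7.95, 7.63 and 8.58 CPM in shCtrl and at 7.91, 6.66 and 7.03 CPM in shUSP8 (-0.16). Ndufaf5 spread widely within shUSP8, at 13.1, 6.76 and 8.2 CPM against 9.11, 9.95 and 8.99 in shCtrl, and was called lower only without shUSP8_1 (-0.32, adjusted p = 0.0492). Ndufaf8, the partner of Ndufaf5, was at 10.6, 9.2 and 9.25 CPM in shCtrl and at 9.81, 8.16 and 9.82 CPM in shUSP8 (-0.07).

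The 2 most positive values among the assembly factors, those of Ndufaf2 and Ndufaf6, came without a call in the fit on counts. Ndufaf2, which holds a place in late intermediates that Ndufa12 takes later, was at 2.33, 3.28 and 2.94 CPM in shCtrl and at 4.39, 2.37 and 4.59 CPM after knockdown (log2 fold change 0.41, SE 0.25, edgeR adjusted p = 0.247). The libraries shUSP8_1 and shUSP8_3 lay above the controls and shUSP8_2 among them, and without shUSP8_2 the gene was called higher (0.65, adjusted p = 0.0138). Its exons overlap B230220B15Rik on the opposite strand over 65.6% of their length, so its counts are uncertain if they do not use strand, although all 6 were whole numbers. Ndufaf6, an early factor of the peripheral arm, was at 5.72, 6.42 and 6.67 CPM in shCtrl and at 7.17, 6.42 and 7.57 CPM in shUSP8 (0.17, adjusted p = 0.280). On the TPM scale it was at 14.1, 15.2 and 17.8 in shCtrl and at 22.42, 21.04 and 29.07 in shUSP8, without overlap. It was called higher on log2(TPM + 1) (0.59, limma adjusted p = 0.0226). Of all tested genes, 33.8% were higher without overlap in TPM and 18.7% were called higher on log2(TPM + 1). Ndufaf6 has 7 listed transcripts, and the part of their mix in its TPM values was not tested. With offsets and without shUSP8_2 Ndufaf6 was also called higher (0.58, adjusted p = 0.0488). With offsets over all 6 libraries it was not (0.49, adjusted p = 0.0658).

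The subunits moved unevenly across the knockdown libraries. The share of all counts that fell on members was 0.331, 0.332 and 0.332% in shCtrl and 0.321, 0.273 and 0.296% in shUSP8. Relative to the shCtrl mean, the median member lay at -0.05 in shUSP8_1, -0.39 in shUSP8_2 and -0.20 in shUSP8_3 on the log2 CPM scale, while the shCtrl libraries lay within 0.02 of 0. Thus in CPM shUSP8_1 was nearest to the controls and shUSP8_2 farthest. With effective-length offsets the median member lay at -0.085 in shUSP8_1, -0.20 in shUSP8_2 and -0.23 in shUSP8_3, so shUSP8_3 was farthest there. In CPM, 26 of 45 members had every shUSP8 library below every shCtrl library and 0 had the reverse, against 23.1% and 24.6% of all tested genes. These 26 were all 7 core subunits, 19 of 30 accessory subunits and 0 of 8 assembly factors. In TPM the same holds for 8 members lower and 3 higher, against 9.12% and 33.8% of all tested genes, and Ndufs8, Ndufb6 and Ndufb9 are among the 8. Summed TPM of the members was 8391, 8130 and 7969 in shCtrl and 7931, 7669 and 7844 in shUSP8, so every knockdown library was below the lowest control, shUSP8_1 by a narrow margin.

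**Figure D3:**
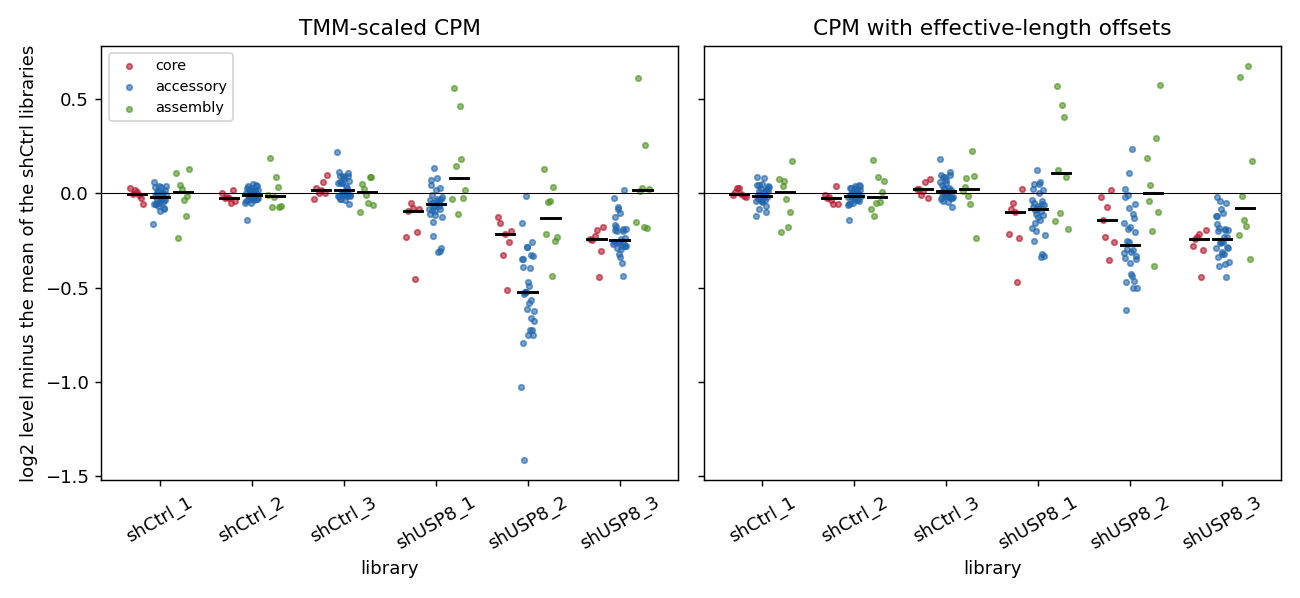
Log2 level of each tested member minus its mean in shCtrl (vertical axis), by library and class, as TMM-scaled CPM (left) and as CPM with effective-length offsets (right). Black lines are medians. On the left the median accessory subunit lies at -0.52 in shUSP8_2 and -0.25 in shUSP8_3, and on the right at -0.28 and -0.24.

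The gap between shUSP8_2 and the other knockdown libraries went with transcript length. Effective length, taken from the ratio of count to TPM, stands for the number of positions at which a fragment can start. In a gene with several transcripts it also depends on how reads were divided among them, and this part was not tested. The ratio of effective length in shUSP8_2 to that in the other libraries was 0.787 in Ndufv1 (1188 nt, 14 transcripts). In Ndufa9 (1140 nt, 3 transcripts) it was 0.942. Effective length was 300 nt or less for 14 members in the other libraries. All 14 had lower log2 CPM in shUSP8_2 than in the mean of shUSP8_1 and shUSP8_3 (median gap -0.46). The median gap was -0.29 for the 15 members of 300 to 600 nt and -0.10 for the 16 longer ones. With the effective length of each gene and library as an offset, these medians were -0.05, -0.08 and -0.08. Across the 45 genes, which share their libraries and are not replicates, effective length and the gap had a Pearson r of 0.616 and a Spearman rho of 0.757 in CPM, and of 0.092 and 0.067 with offsets.

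**Figure D4:**
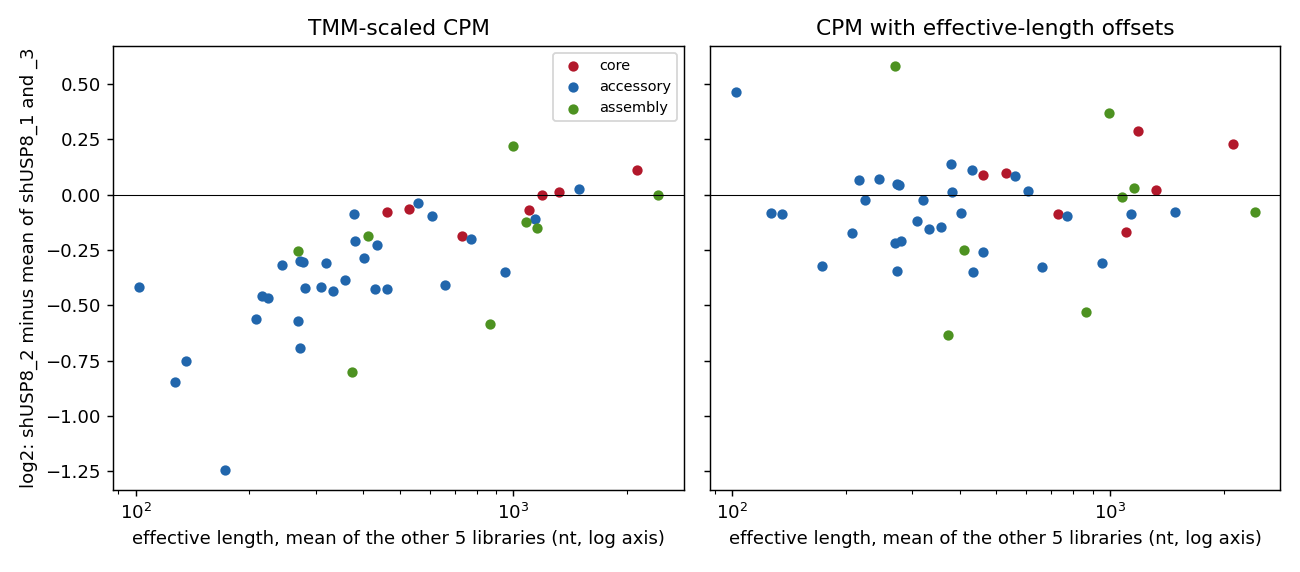
Log2 level in shUSP8_2 minus the mean of shUSP8_1 and shUSP8_3 (vertical axis) against effective length in nt (log axis) for the 45 tested members, coloured by class. In CPM (left) all 14 members of 300 nt or less lie below 0, and with offsets (right) their median is -0.05.

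Fitted with these offsets over 11304 genes, 7 of 45 members fell and 0 rose, against 10.3% of genes called lower and 11.9% called higher. They were Ndufs8, Ndufb9, Ndufb6, Ndufs5 and Ndufa6 from the fit on counts, and also Ndufa3 (-0.39, adjusted p = 0.0254) and Ndufv3 (-0.36, adjusted p = 0.0132), a small subunit beside Ndufv1. The median member was at -0.15, and 39 of 45 values were negative, against 5620 of 11304 genes. On log2(TPM + 1), tested with limma, 3 members fell (Ndufs8, Ndufb9 and Ndufb6) and Ndufaf6 rose, against 4.01% of genes called lower and 18.7% called higher. On that scale the median of all genes was 0.11 and that of the members -0.03, so the median member lay below the median gene there too. Without shUSP8_2, 12 members fell and Ndufaf2 rose, against 14.8% and 16.8% of genes, with a median of -0.13. With offsets and without shUSP8_2, a setting chosen after the fragment lengths had been seen, 9 members fell and 2 rose, against 10.3% and 11.3%, with a median of -0.14. Ndufs8, Ndufb9, Ndufb6, Ndufs5 and Ndufa6 were called lower on counts, with offsets and without shUSP8_2 in either fit.

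Outside the Nduf names, the core subunits of the membrane arm come from the mitochondrial genome. Of its 7 complex I genes 4 fell, by more than any nuclear member that was called. The gene mt-Nd5 was at 3513, 3489 and 3672 CPM in shCtrl and at 2247, 2099 and 2420 CPM after knockdown (log2 fold change -0.66, SE 0.06, edgeR adjusted p = 8.17e-06). mt-Nd1 fell by 0.63, mt-Nd4 by 0.63 and mt-Nd2 by 0.61 on the log2 scale (adjusted p of 9.70e-05, 4.51e-04 and 0.00111), and in each every shUSP8 library was below every shCtrl library. The short genes mt-Nd3 (-0.77, adjusted p = 0.265) and mt-Nd4l (-0.77, adjusted p = 0.252) and the gene mt-Nd6 (-0.81, adjusted p = 0.138) did not pass, with shUSP8_2 the lowest library in all 3. With offsets mt-Nd4l (adjusted p = 8.59e-05) and mt-Nd6 (adjusted p = 0.0128) were called lower. Ndufab1, the acyl carrier protein held by Ndufa6 and Ndufb9, was at 104.4, 108.6 and 106.2 CPM in shCtrl and at 98.7, 85.3 and 93.7 CPM in shUSP8 (-0.20, SE 0.06, adjusted p = 0.0200). Its call was kept in 2 of the 6 fits that left out a library and lost with offsets (adjusted p = 0.224). Ndufb1-ps, the remaining subunit, did not pass (-0.40, adjusted p = 0.479). Of 11 assembly factors without an Nduf name, among them Ecsit, Acad9, Timmdc1 and Foxred1, 0 were called, with log2 fold changes from -0.25 for Tmem126b to 0.13 for Ecsit.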

How the data were processed

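The deposited values are RSEM expected counts (estimated read pairs per gene; 7.16% are not whole) and TPM, in which the authors' counts are divided by effective length and scaled to a fixed sum. Per the submitters' processing notes, RSEM, DESeq2 1.28.1 and the mm10 genome were used. The aligner and annotation release are not given in the sources used here. Columns named WT were taken as shCtrl and columns named KO, a word no label uses, as shUSP8, the only other genotype.

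Expected counts were rounded and fitted in edgeR 4.0.16 (R 4.3.3; TMM, filterByExpr with minimum count 10 and total 15, robust quasi-likelihood F test, Benjamini-Hochberg adjusted p under 0.05). SE is the absolute log2 fold change over the square root of F. Offsets were expected count over TPM for genes with at least 0.5 TPM in every library. They therefore carry differences in the estimated mix of transcripts as well as in fragment length. Fragment length came from a line fit of that ratio on transcript length in single-transcript genes. Gene positions are from GENCODE M21, which held 98.7% of the listed transcripts. Alternatives used limma 3.58.1 and DESeq2 1.42.0. The fit was also run on simulated counts without a difference in fragment length, so that run says nothing about shUSP8_2.

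Members and lists were chosen with earlier results of these data known. The rule names all core subunits, tested assembly factors and called accessory subunits, the 4 most abundant of the rest, untested members, and from the other lists the called genes, Ndufab1 and the motif factors. Ndufa3, Ndufa8, Ndufb4c, Ndufv3, mt-Nd3, mt-Nd4l, mt-Nd6, Ndufb1-ps and the assembly factors outside the Nduf names were named after their values were seen. Coa1 was not analysed here, and 1 core subunit is counted but its own values are not reported here.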

Additional observations from a re-analysis of the deposited data

How the results depend on the processing

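The count of members called lower was 16 as reported. It was 17 with RLE factors, 16 with upper quartile factors, 16 with unrounded counts, 21 with DESeq2 and 17 with limma-voom, and 15 of the 16 genes were kept by each of the last 2. It was 6 with library totals, which raised the median of all genes to 0.07 and changed the split of all calls from 1859 lower and 2218 higher to 1172 and 3111. It was 28 with no filter on low counts, against 9.88% of all genes called lower in that fit. It was 7 with effective-length offsets (10.3% of all genes) and 9 with offsets and without shUSP8_2 (10.3%). It was 3 on log2(TPM + 1) (4.01%), on log2(TPM + 0.1) (3.96%) and on log2(TPM + 1) with no filter (1.73%). The share of all genes was 15.2% with RLE factors, 15.2% with upper quartile factors, 14.9% with unrounded counts and 9.42% with library totals. Leaving out 1 library gave 6 to 31. Dropping shCtrl_1, shCtrl_2 or shCtrl_3 gave 9, 7 or 6, and dropping shUSP8_1, shUSP8_2 or shUSP8_3 gave 31, 12 or 6. Where an arm had 2 libraries, its spread was pooled with the rest. Members called higher were 0, but 1 on log2(TPM + 1) and on log2(TPM + 0.1), 2 with offsets and without shUSP8_2, and 0 to 1 with 1 library left out. The median log2 fold change stayed negative in all settings run and was -0.03 on the TPM scales. Of the 16 called members only Ndufa10 changed sign there (0.021 in each, limma adjusted p of 0.779 to 0.791). Members not called changed sign too: 41 of 45 values were negative as reported and 31 of 45 on each TPM scale. Of all 12440 genes, 6318 were negative as reported and 3910 on log2(TPM + 1), where the median gene was at 0.11. The member counts are therefore to be read against a baseline that moved as well. The number of motif factors called was 0 as reported, 1 with library totals, 1 with no filter, and 0 to 1 with 1 library left out. The other complex I genes called lower were 5, and 4 to 6 in all settings, which for them and the factors were added after seeing the data. With a replicate block 17 members were called lower (against 13.6% of all genes), 14 of them the same genes. Same-numbered libraries did not deviate together (r of -0.01, 0.06 and -0.06), so the numbers were not used as pairs. The cause of these changes was not tested, except that the offsets act through effective length.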
